A study of Arabidopsis thaliana with 24 samples.

Results

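Actin is the protein of the microfilaments, and Arabidopsis encodes it in a family of 8 expressed genes, ACT1, ACT2, ACT3, ACT4, ACT7, ACT8, ACT11 and ACT12. Their gene identifiers were looked up in the 2 deposited expression tables. All 8 were found among the 33469 genes of the Col-0 table and among the 32844 genes of the table of WS and sku5. The family was selected on its FPKM values across the 8 groups of libraries, so the levels and changes of the 8 genes are given as a description. Whether a fit over all genes called a member is stated beside the share of all genes called, but these calls use the values that chose the family and are no test of it, and nothing is read from their counts.

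Actin monomers assemble into filaments that carry organelle and vesicle traffic, position nuclei and direct cell growth. In Arabidopsis ACT2, ACT7 and ACT8 form the vegetative class, expressed in roots, leaves and stems, and ACT1, ACT3, ACT4, ACT11 and ACT12 form the reproductive class, known best from pollen and ovules. ACT2 and ACT8 are needed for normal root hair growth, ACT7 responds to auxin and other hormones and is needed for normal root growth, and ACT2 and ACT8 are common reference genes in RT-qPCR.

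RNA was sequenced from whole roots of seedlings flown on a suborbital vehicle or kept on the ground, with 3 libraries in each of 8 groups. Wild-type Col-0 and wild-type WS (Wassilewskija), both 10 days old, flew on Virgin Galactic's SpaceShipTwo (VG) or served as its ground controls. Wild-type WS and the mutant sku5, which is in the WS background, both 11 days old, flew on Blue Origin's New Shepard (BO) or served as its ground controls. SKU5 encodes a cell surface glycoprotein of directional root growth, and the mutant is a single stock line. All plants grew on vertical plates of dilute Murashige-Skoog salts with 0.5% sucrose, and those that flew were kept dark in a cloth wrapping. BO flight roots were fixed 33 min after landing, and BO ground roots were harvested 1 h after the flight plates. This difference in harvest time cannot be told apart from flight in the BO comparisons. At BO plates had been kept in a herb cultivator and at VG in the ambient air of the payload facility, so vehicle, year, site, age and growth conditions cannot be told apart between VG and BO.

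The values are FPKM, fragment counts scaled by transcript length and library size, so levels of different genes can be compared per length. Between 18176 and 18877 genes reached 1 FPKM in each library. Read totals were not given, so the depth behind each value is unknown. SKU5 (AT4G12420) was at 3.17 to 9.85 FPKM in the 6 sku5 libraries and at 27.6 to 94.2 FPKM in the 12 WS libraries, and these ranges did not overlap. Each of 6 root and 7 root hair markers was detected in every group. The pollen markers VGD1 and VGDH1 summed to 0 FPKM in all libraries of 6 groups and to at most 0.80 FPKM elsewhere.

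ACT2 and ACT8 had the highest group means of the family in all 8 groups. In 1 library, WS BO ground replicate 1, ACT7 was above ACT8, at 471 against 424 FPKM. ACT2 (AT3G18780) was listed at 1142, 1109 and 1241 FPKM in Col-0 VG ground roots and at 1107, 1057 and 1142 FPKM in Col-0 VG flight roots. In WS it was at 975, 865 and 954 FPKM in VG ground and at 1007, 847 and 883 FPKM in VG flight roots. The flight and ground ranges overlapped in both lines at VG. At BO, ACT2 was at 486, 529 and 514 FPKM in WS ground roots and at 842, 854 and 905 FPKM in WS flight roots. In sku5 it was at 487, 535 and 512 FPKM on the ground and at 840.2, 818 and 837 FPKM in flight. The 6 BO ground libraries were the lowest of all 24, and no BO flight library reached down to them.

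ACT8 (AT1G49240), the closest relative of ACT2, was likewise lowest in BO ground roots. It was at 1104, 1177 and 1319 FPKM in Col-0 VG ground and at 1086, 1222 and 1157 FPKM in Col-0 VG flight roots. In WS it was at 857, 828 and 869.7 FPKM in VG ground and at 823, 822 and 780.0 FPKM in VG flight roots. The Col-0 ranges overlapped, and each WS flight library lay below each WS ground library by a small margin. At BO, WS had 424, 516 and 515 FPKM on the ground and 883, 957 and 951 FPKM in flight. In sku5, ACT8 was at 474, 526 and 473 FPKM on the ground and at 795, 835 and 785 FPKM in flight. As for ACT2, the BO ground libraries were the lowest of all and lay apart from the rest.

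ACT7 (AT5G09810), the third vegetative actin, was less abundant and ran the other way at BO. It was at 245, 245 and 236 FPKM in Col-0 VG ground and at 227, 249 and 213 FPKM in Col-0 VG flight roots. In WS it was at 273, 296 and 238 FPKM in VG ground and at 295, 325 and 302 FPKM in VG flight roots. Ground and flight overlapped in both lines. At BO, WS had 471, 360.3 and 395 FPKM on the ground and 311, 281 and 288 FPKM in flight. In sku5, ACT7 was at 400.0, 422 and 463 FPKM on the ground and at 250.1, 345 and 396 FPKM in flight. The BO ground libraries were above the flight libraries of the same line in both lines, but in sku5 the highest flight library lay just under the lowest ground library.

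**Figure D1:**
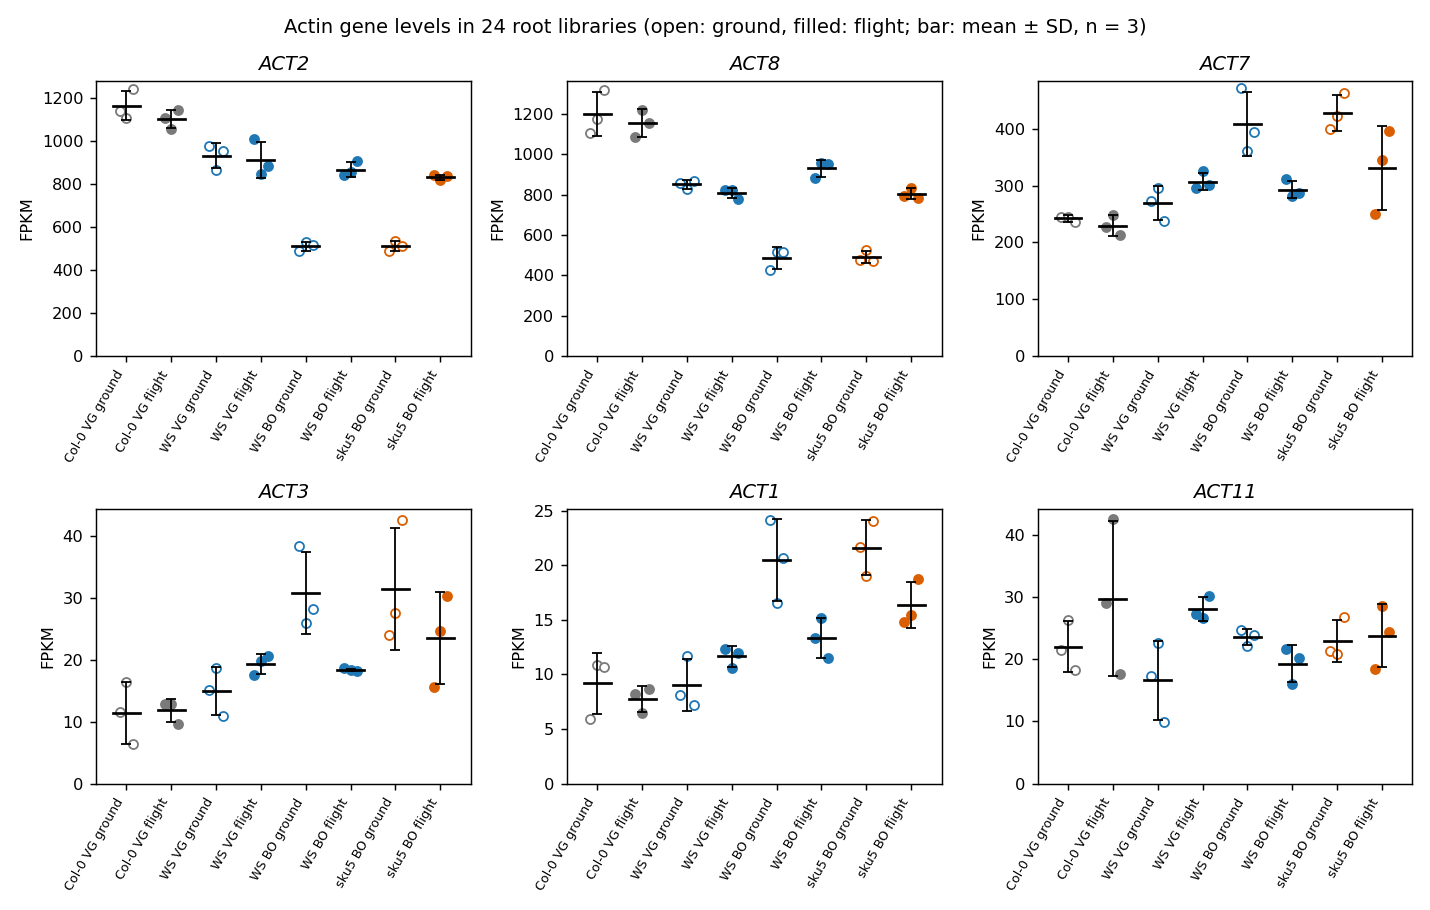
FPKM (linear axis from 0) of the 6 actin genes above 1 FPKM, by group; each point is a library, open for ground and filled for flight, and bars are the mean ± SD of 3. ACT2 and ACT8 are lowest in the 6 BO ground libraries, while ACT7, ACT3 and ACT1 have their highest group means there.

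The reproductive actins were present at low levels. ACT3 (AT3G53750) was at 6.39 to 16.4 FPKM in the Col-0 libraries and at 10.9 to 20.7 FPKM in the WS VG libraries. In WS at BO it was at 38.4, 26.0 and 28.3 FPKM on the ground and at 18.6, 18.3 and 18.3 FPKM in flight, with no overlap. In sku5 it was at 24.1, 27.5 and 42.7 FPKM on the ground and at 15.6, 24.7 and 30.3 FPKM in flight, and these ranges overlapped. ACT1 (AT2G37620), the paralogue nearest to ACT3, was at 5.93 to 12.4 FPKM over all VG libraries. At BO it was at 24.2, 16.6 and 20.7 FPKM in WS ground roots and at 13.3, 15.2 and 11.5 FPKM in WS flight roots. In sku5 ACT1 was at 21.7, 19.1 and 24.1 FPKM on the ground and at 14.8, 15.5 and 18.7 FPKM in flight. Ground and flight libraries did not overlap in either line at BO.

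ACT11 (AT3G12110) showed no common order of flight and ground. In Col-0 it was at 21.5, 26.4 and 18.2 FPKM on the ground and at 29.1, 42.7 and 17.7 FPKM in flight. In WS at VG it was at 17.4, 22.6 and 9.86 FPKM on the ground and at 27.3, 26.6 and 30.3 FPKM in flight, so that flight lay above ground. In WS at BO flight lay below ground, at 21.7, 16.1 and 20.3 FPKM against 24.8, 22.2 and 24.0 FPKM. The sku5 ranges overlapped, with group means of 23.0 ± 3.34 FPKM on the ground and 23.9 ± 5.12 FPKM in flight (SD, n = 3).

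The 2 remaining reproductive genes were hardly detected. ACT4 (AT5G59370) was above 0 in 1 of 6 Col-0 libraries and in 14 of 18 WS and sku5 libraries, with a highest value of 0.75 FPKM in a WS BO ground library. ACT12 (AT3G46520), its nearest paralogue, was listed at 0 in all but 2 of the 24 libraries, where it was at 0.32 and 0.18 FPKM. Neither reached 1 FPKM in any library, so 6 of the 8 genes passed the filter of 1 FPKM in at least 3 libraries and entered the fits below. All 12 BO libraries listed ACT4 above 0, against 2 of the 6 WS VG libraries.

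Ordered by group mean, ACT2 ran from 1164 ± 68.8 FPKM in Col-0 VG ground roots to 509.5 ± 21.8 FPKM in WS BO ground roots (SD, n = 3). The 2 Col-0 groups overlapped each other and lay above the rest, followed by WS VG ground, WS VG flight and WS BO flight, whose neighbours overlapped. Next came sku5 BO flight and, well below, both BO ground groups, which overlapped. ACT8 ran from 1200.3 ± 109 to 485 ± 53.1 FPKM, and here WS BO flight roots, at 930.0 ± 41.2 FPKM, stood above both WS VG groups with no overlap. ACT7 ran from 429 ± 32.0 FPKM in sku5 BO ground roots to 229.7 ± 17.8 FPKM in Col-0 VG flight roots, and every pair of neighbours in its order overlapped. The same held for ACT3, ACT1 and ACT11. Values of Col-0 and of the other lines come from separate tables and are set side by side without a test.

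Among all genes of a library, ranked by FPKM, ACT2 held rank 53 to 150 in the 18 libraries that were not BO ground and rank 216 to 289 in the 6 that were. The ranks of ACT8 were 50 to 163 and 225 to 332 over the same libraries. ACT7 stood at rank 284 to 353 in BO ground roots and at 370 to 740 elsewhere, a shift in the other direction.

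The make-up of the actin transcripts therefore differed in BO ground roots. The vegetative genes gave 93.9% to 98.8% of the summed actin FPKM of each library. ACT7 alone gave 27.7% ± 3.96 of it in WS BO ground roots and 13.7% ± 1.02 in WS BO flight roots (SD, n = 3). In sku5 its share was 28.4% ± 1.45 on the ground and 16.2% ± 3.03 in flight. At VG the share was 12.9% ± 1.56 and 14.7% ± 1.17 in WS ground and flight roots, and 9.17% ± 0.737 and 9.05% ± 0.628 in Col-0. The ratio of ACT2 plus ACT8 to ACT7 was 1.93 to 2.90 in the 6 BO ground libraries and 4.10 to 10.9 in the other 18, with no overlap. ACT2 and ACT8 kept close to each other throughout, with group means of their ratio between 0.933 and 1.13. The 5 reproductive genes together summed to 75.7 ± 11.6 FPKM in WS BO ground and 51.4 ± 2.11 FPKM in WS BO flight roots.

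**Figure D2:**
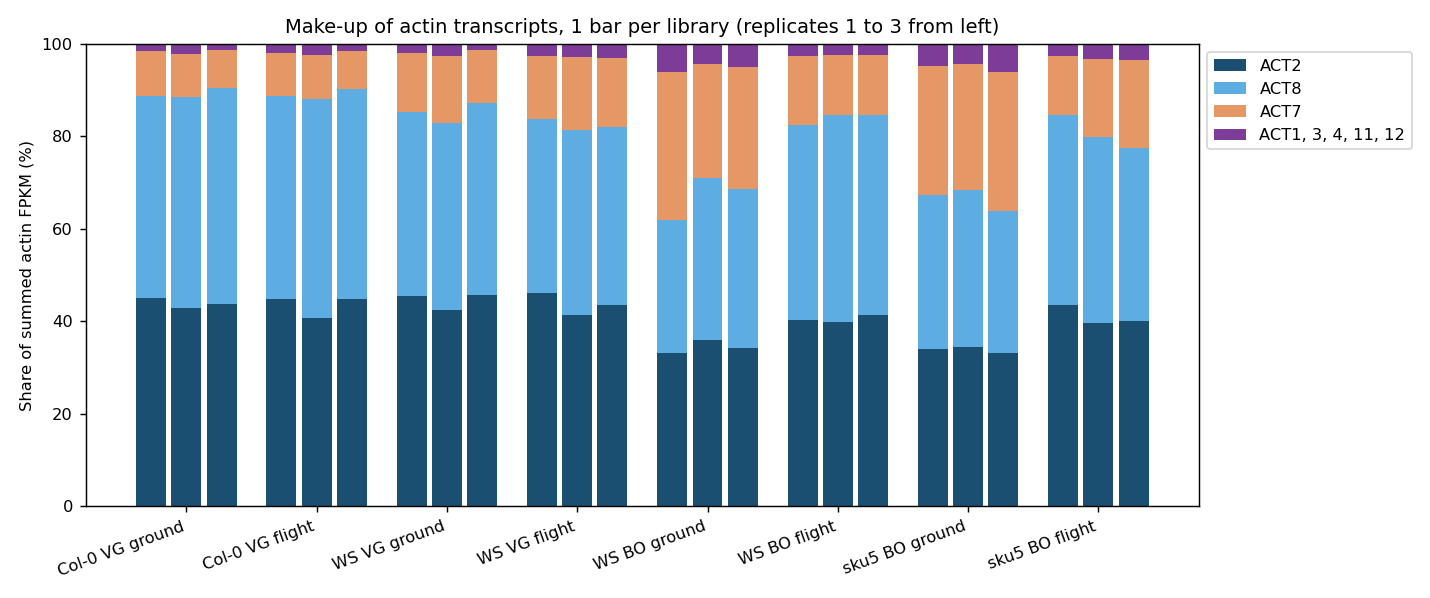
Share of the summed FPKM of the 8 actin genes (%) held by ACT2, ACT8, ACT7 and the 5 reproductive genes together, 1 bar per library. ACT7 takes 24.5% to 32.1% in the 6 BO ground libraries and 8.33% to 18.9% in the other 18.

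Summed over the family, actin transcripts stood at 1479 ± 16.1 FPKM in WS BO ground roots and at 2142 ± 52.1 FPKM in WS BO flight roots. In sku5 the sums were 1507 ± 68.1 and 2031 ± 84.3 FPKM. At VG, WS roots had 2093 ± 51.7 FPKM on the ground and 2087 ± 83.6 FPKM in flight, and Col-0 roots 2649 ± 160.4 and 2537 ± 60.6 FPKM (SD, n = 3 for each). FPKM is relative to all transcripts of a library, and in whole roots a lower share of a cell type cannot be told apart from less of the transcript per cell.

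**Figure D3:**
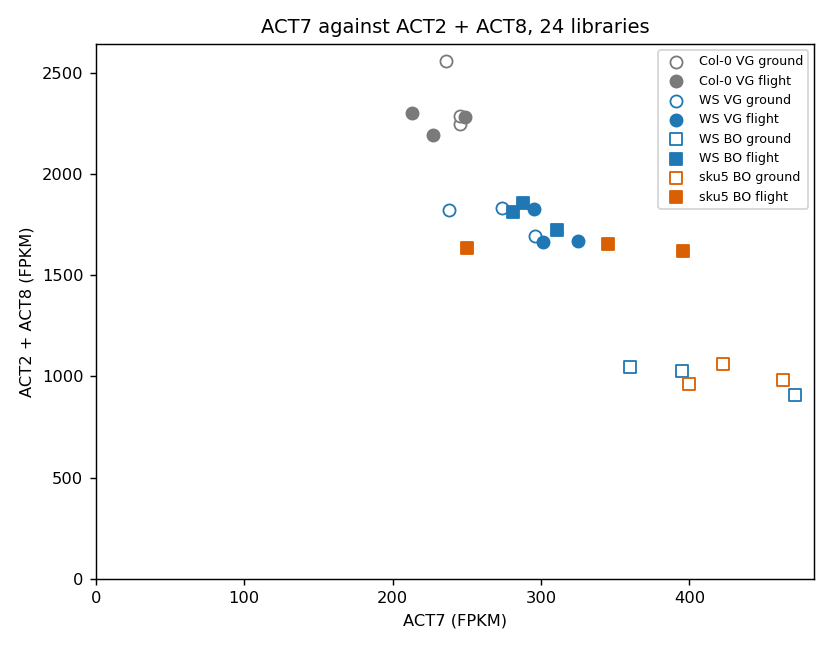
Summed FPKM of ACT2 and ACT8 (vertical, from 0) against FPKM of ACT7 (horizontal, from 0) in each of the 24 libraries; circles are VG, squares BO, open symbols ground and filled symbols flight. The 6 BO ground libraries lie apart, at 909.5 to 1061 FPKM of ACT2 plus ACT8, while all others are at 1622 FPKM or above.

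At VG the study compared suborbital flight on a winged vehicle with ground controls in Col-0 and WS. Changes were fitted with limma on log2(FPKM + 1), and a gene was called where its p, adjusted by Benjamini and Hochberg's method over all genes of the comparison, was under 0.05. In Col-0, limma called 0 of the 6 actin genes, 0 of them had an unadjusted p under 0.05, and 0.00532% of all tested genes were called. The log2 changes (flight minus ground) of ACT2, ACT8 and ACT7 were -0.08 (SE 0.09), -0.05 (SE 0.10) and -0.08 (SE 0.10), and the widest was that of ACT11 at 0.35 (SE 0.30). Flight and ground overlapped for all 6, while over all genes 5.06% were higher and 5.28% lower with no overlap. In WS, limma called 0 of 6, with 1 at an unadjusted p under 0.05 and 0.0298% of all genes called, 0.00994% higher and 0.0199% lower. There ACT2 and ACT8 changed by -0.03 (SE 0.11) and -0.08 (SE 0.11), and ACT7, ACT3 and ACT1 by 0.19 (SE 0.15), 0.38 (SE 0.24) and 0.36 (SE 0.19). The largest WS change at VG was that of ACT11, 0.79 (SE 0.23). Flight and ground did not overlap for ACT11, higher in flight, and ACT8, lower, beside 7.52% and 7.16% of all genes in these directions.

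At BO the study asked the same of a rocket flight. In WS, ACT2 was 1.70 times as high in flight as on the ground (log2 change 0.77, SE 0.11), and ACT8 1.92 times as high (0.94, SE 0.11). The fit called both, and of all genes tested it called 11.7%, 5.51% higher and 6.15% lower in flight. ACT7 was at 0.717 of its ground mean, with a log2 change of -0.47 (SE 0.15), and ACT3 and ACT1 changed by -0.70 (SE 0.24) and -0.57 (SE 0.19). ACT11 changed by -0.29 (SE 0.23), and none of these 4 was called. All 6 genes separated flight from ground with no overlap, 2 higher and 4 lower in flight, as did 15.5% and 21.9% of all genes. Without WS BO ground replicate 2 the fit called 4.

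In sku5 at BO, ACT2 was 1.63 times and ACT8 1.64 times as high in flight, with log2 changes of 0.70 (SE 0.11) and 0.71 (SE 0.11). The fit called these 2, beside 10.3% of all genes, 5.05% higher and 5.25% lower. ACT7 changed by -0.40 (SE 0.15), ACT3 by -0.41 (SE 0.24), ACT1 by -0.38 (SE 0.19) and ACT11 by 0.04 (SE 0.23). Flight and ground did not overlap for ACT2 and ACT8, higher in flight, nor for ACT7 and ACT1, lower in flight, and over all genes 10.3% and 15.8% were apart in these directions. The WS and sku5 comparisons use different libraries and so share none.

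**Figure D4:**
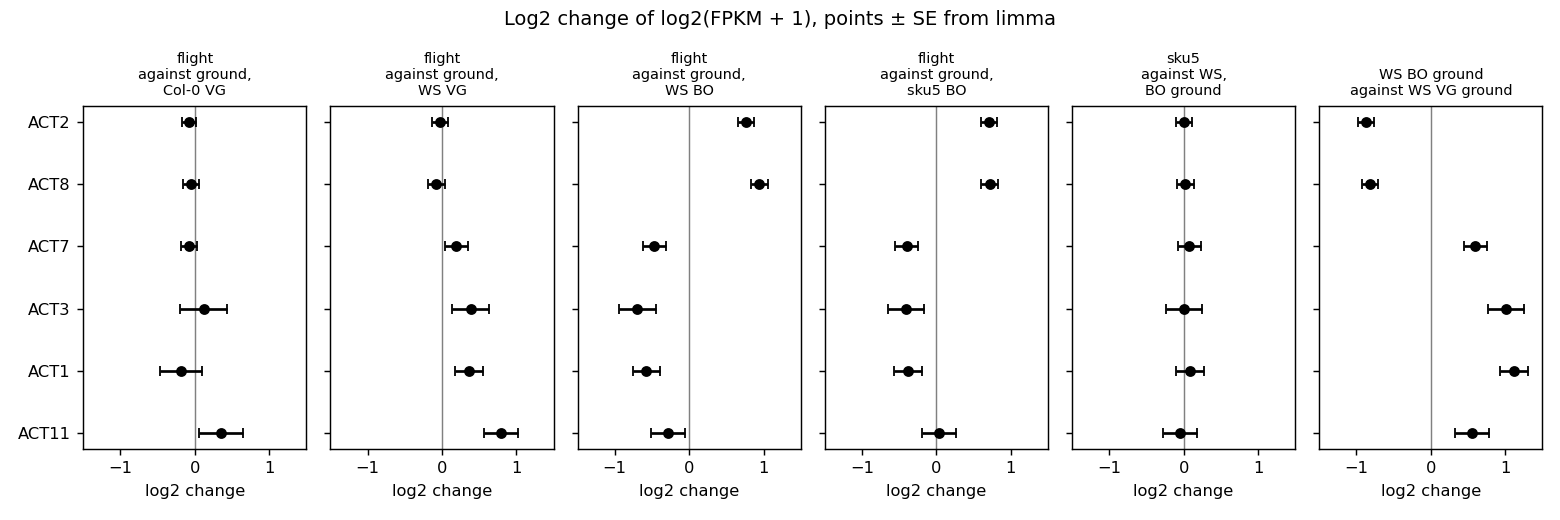
Log2 change (horizontal, ± SE from limma) of the 6 tested actin genes in 6 comparisons, 1 panel each. ACT2 and ACT8 lie between 0.70 and 0.94 in both BO flight panels and between -0.87 and -0.82 in the panel of BO against VG ground roots, and ACT7, ACT3 and ACT1 lie on the other side of 0 in all 3.

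The mutant was set against its wild type on the ground and in its response to flight. On the ground at BO, limma called 0 of the 6 actin genes between sku5 and WS, 0 had an unadjusted p under 0.05, and 0.0149% of all genes were called. Differences (sku5 minus WS) ran from -0.04 (SE 0.23) for ACT11 to 0.08 (SE 0.19) for ACT1, with ACT2 at 0.00 (SE 0.11) and ACT8 at 0.02 (SE 0.11). All 6 overlapped between the lines, and over all genes 2.93% were higher and 4.27% lower in sku5 with no overlap. The flight effect in sku5 minus that in WS was -0.06 (SE 0.15) for ACT2, -0.23 (SE 0.16) for ACT8 and 0.07 (SE 0.22) for ACT7. For ACT3, ACT1 and ACT11 it was 0.29 (SE 0.35), 0.19 (SE 0.26) and 0.32 (SE 0.32). Of these differences limma called 0 of 6, with 0 at an unadjusted p under 0.05 and 0.0% of all genes called, against 317 genes at an unadjusted p under 0.05.

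WS was grown on the ground for both flights. Between BO and VG ground roots the fit called 5 of the 6 actin genes and 32.2% of all genes, 16.9% higher and 15.3% lower, and these 2 figures are not compared, since the family was selected on these values. ACT2 was at 0.547 and ACT8 at 0.569 of the VG ground mean, with log2 changes (BO minus VG) of -0.87 (SE 0.11) and -0.82 (SE 0.11). ACT7 was 1.52 times as high in BO ground roots, a log2 change of 0.60 (SE 0.15), ACT3 2.07 times (1.01, SE 0.24) and ACT1 2.28 times (1.11, SE 0.19). ACT11 changed by 0.55 (SE 0.23) and was not called. ACT2 and ACT8 were lower and ACT7, ACT3 and ACT1 higher with no overlap, as were 23.4% and 26.5% of all genes. This comparison shares the WS BO ground libraries with the BO flight comparison, so its values and those above are not independent.

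The flight effect of WS at BO minus that at VG was 0.80 (SE 0.15) for ACT2 and 1.02 (SE 0.16) for ACT8. For ACT1 it was -0.94 (SE 0.26). The fit called these 3 of 6 and, of all genes, 6.83%, 3.63% higher and 3.2% lower. ACT7, ACT3 and ACT11 had differences of -0.66 (SE 0.22), -1.08 (SE 0.35) and -1.08 (SE 0.32) and were not called. ACT2 and ACT8 were called under all 19 alternatives and ACT1 under 8 of 19. These alternatives refit the values that chose the family and are no test of it. Without WS VG ground replicate 2 the count was 5.

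Reads of near-identical genes can be shared by the quantifier. By RefSeq transcripts of the assembly TAIR10.1, whose build may differ from that of the files, all 8 coding sequences are 1134 bases long. ACT2 and ACT8 are identical at 91.0% of coding bases, ACT1 and ACT3 at 90.5%, ACT4 and ACT12 at 87.9%, and all other pairs at 78.3% to 84.3%. Shared runs of 50 bases were rare: none of those of ACT2 or ACT7 occurred in another transcript, and at most 0.76% of those of any member did. With ACT2 and ACT8 summed, the log2 change in WS BO flight was 0.86. One symbol also differs between sources, since the Col-0 table gives AT2G37620 the name ACT3, and the identifier is used here as ACT1.

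In the authors' deposited table of changed genes for WS at BO, which lists 865 genes, ACT8 has a log2 change of 1.01 with a standard error of 0.10 and a p-value of 4.28e-19. The authors' deposited tables for sku5 at BO, WS at VG and Col-0 at VG, with 923, 57 and 13 genes, list 0 of the 8. The smallest absolute log2 change in the authors' deposited table of WS at BO is 1.00, and the fit given above put ACT2 at 0.77. For sku5 at BO the smallest is 1.00 as well, and the fit put ACT2 at 0.70 and ACT8 at 0.71. The largest p-value in each of these authors' deposited tables is 0.01.

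Across the 18 WS and sku5 libraries, Pearson's r of log2(FPKM + 1) was 0.96 between ACT2 and ACT8, -0.84 between ACT2 and ACT7 and 0.96 between ACT7 and ACT3. After the group means were removed, these were 0.50, -0.36 and 0.91. ACT3 and ACT1 gave 0.89 and 0.69, and ACT2 and ACT11 -0.24 and -0.31. In the sku5 flight libraries, for example, ACT7 and ACT3 were both lowest in replicate 1 and both highest in replicate 3. The points share their libraries and normalization, and fall into 6 groups.

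Of 8643 tested genes with a symbol in the reference, those most like ACT2 over these 18 libraries were J11 (r 0.98), KTI1 (0.97), BBX21 (0.96), WAV2 (0.96) and VAP27-1 (0.96). J11 encodes a plastid J-domain protein, KTI1 a protease inhibitor and BBX21 a B-box transcription factor. WAV2 is known from root waving and bending, and VAP27-1 tethers endoplasmic reticulum to the plasma membrane and the cytoskeleton. KTI1 (AT1G73260) had group means of 143 FPKM in WS BO ground and 653 FPKM in WS BO flight roots, a wider range than that of ACT2. Those most like ACT7 were BIP1 (r 0.97), HSP81-3 (0.97), SPK1 (0.96), CNX1 (0.96) and RHM1 (0.96). BIP1 and CNX1 are chaperones of the endoplasmic reticulum, HSP81-3 is a cytosolic HSP90, RHM1 makes rhamnose, and SPK1 is an exchange factor of the ROP GTPases that act on actin. BIP1 (AT5G28540) had group means of 215 FPKM in WS BO ground and 111 FPKM in WS BO flight roots. The r of these genes includes the differences between groups. It was not computed with the group means removed, so likeness within groups is not known.

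Proteins that build, cut, bundle or move along actin filaments were followed in 8 lists with 92 genes, of which 79 were tested in WS and sku5 and 78 in Col-0. At VG, limma called 0 of them in Col-0, with 2 at an unadjusted p under 0.05, and 0 in WS, with 3. Of all genes it called 0.00532% in Col-0 and 0.0298% in WS. An unadjusted p under 0.05 was reached by 926 of 18786 genes in Col-0 and 1884 of 20127 in WS. At BO 7 of 79 (8.86%) were called in WS, 3 higher and 4 lower in flight, with a median log2 change of -0.12 beside -0.08 over all genes. In sku5 8 of 79 (10.1%) were called, 1 higher and 7 lower, with a median of -0.17 beside -0.09. These shares were near those of all genes, 11.7% and 10.3%. WLIM2b, SCAB1, FH2 and FH5 were called in both lines, 4 of the 7 WS genes and 4 of the 8 sku5 genes.

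Bundling proteins moved in both directions. WLIM2b (AT3G55770), a LIM protein that bundles filaments, rose in WS BO flight from 183 ± 17.7 to 263 ± 17.7 FPKM (SD, n = 3), with a difference of 0.52 on the log2 scale (SE 0.12, limma adjusted p = 0.0114). In sku5 it rose from 189 ± 12.4 to 256 ± 23.3 FPKM (0.44, SE 0.12, limma adjusted p = 0.0309). Its flight libraries were above the ground libraries in all 3 against 3 in both lines. PLIM2b (AT1G01780), of a LIM class known from pollen, rose in WS by 0.66 (SE 0.19, limma adjusted p = 0.033) and in sku5 had a change of 0.26 that did not pass (limma adjusted p = 0.417). SCAB1 (AT2G26770), a plant-specific bundling protein known from stomatal closure, fell in WS from 37.8 ± 3.40 to 26.6 ± 3.41 FPKM (-0.49, SE 0.14, limma adjusted p = 0.0358). In sku5 SCAB1 fell from 38.7 ± 4.16 to 23.4 ± 2.39 FPKM (-0.70, SE 0.14, limma adjusted p = 0.00573).

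Formins, which nucleate and elongate filaments, were called only on the lower side. FH2 (AT2G43800) fell from 15.4 ± 1.65 to 8.57 ± 1.25 FPKM in WS (-0.78, SE 0.19, limma adjusted p = 0.0145) and by 0.64 (SE 0.19, limma adjusted p = 0.0405) in sku5. FH5 (AT5G54650) fell by 0.52 (SE 0.16, limma adjusted p = 0.0409) in WS and by 0.67 (SE 0.16, limma adjusted p = 0.0126) in sku5. In all, 2 of 12 tested formins fell in WS and 4 of 12 in sku5, where FH4 (-0.78, limma adjusted p = 0.0382) and FH8 (-0.70, limma adjusted p = 0.0305) were the other 2. In WS flight FH4 went from 15.1 to 10.8 FPKM and FH8 from 7.37 to 6.10 FPKM, and neither was called. Of all genes 6.15% were called lower in WS and 5.25% in sku5. The median of the 12 was -0.24 in WS and -0.29 in sku5, beside -0.08 and -0.09 over all genes.

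Single genes of the other lists were called in 1 line each. ADF6 (AT2G31200), of the actin depolymerizing factors that sever filaments, fell in WS from 55.0 ± 4.45 to 33.0 ± 2.62 FPKM (-0.72, SE 0.19, limma adjusted p = 0.0192). ATM2 (AT5G54280), a class VIII myosin, rose in WS from 14.7 ± 2.68 to 24.6 ± 0.200 FPKM (0.72, SE 0.23, limma adjusted p = 0.0491). In sku5 the profilin PRF3 (AT5G56600), which binds actin monomers, fell from 20.9 ± 1.61 to 10.6 ± 0.497 FPKM (-0.91, SE 0.24, limma adjusted p = 0.0212). The class XI myosin XI-2 (AT5G43900), a motor of organelle traffic, fell there by 0.47 (SE 0.14, limma adjusted p = 0.0348). No difference between the lines was called: limma passed 0 of 79 for the flight effect in sku5 minus that in WS and 0 for sku5 against WS on the ground, each with 0 at an unadjusted p under 0.05. Of the 17 subunits of the Arp2/3 and SCAR complexes, which branch filaments, limma called 0 in WS, with 0 at an unadjusted p under 0.05, and 0 in sku5, with 2.

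These counts rested on few libraries. In WS the 7 fell to 0 when BO ground replicate 1 was left out and to 2 when any of ground replicate 3, flight replicate 1 and flight replicate 3 was. In sku5 the 8 fell to 1 when ground replicate 1 or flight replicate 1 was left out, to 3 for ground replicate 2 and to 5 for flight replicate 2. The share of all genes called in these fits is not given here, so the drops cannot be set against it.

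**Figure D5:**
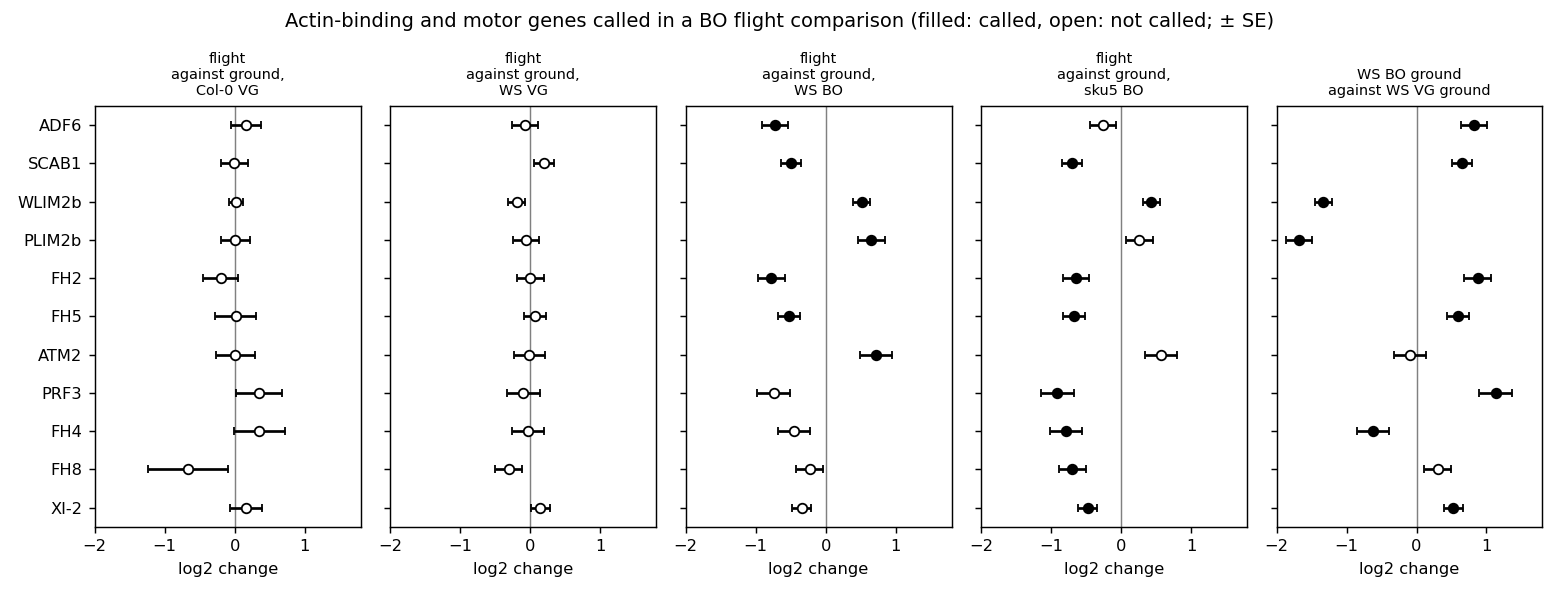
Log2 change (horizontal, ± SE from limma) of the 11 actin-binding and motor genes called in either BO flight comparison, in 5 comparisons; filled points were called. In both VG panels 0 points are filled, and WLIM2b, SCAB1, FH2 and FH5 are filled in both BO flight panels.

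More of these genes differed between the BO and VG ground roots of WS: 33 of 79 (41.8%) were called beside 32.2% of all genes. Of these, 27 were higher and 6 lower in BO roots, while of all genes 16.9% were called higher and 15.3% lower. The median of the 79 was 0.35 beside 0.04. Without BO ground replicate 1 the count of 33 became 21, and the share of all genes called in that fit is not given here. WLIM2b was lower in BO ground roots, at 183 ± 17.7 against 462 ± 35.9 FPKM (-1.33, SE 0.12, limma adjusted p = 7.31e-07), and PLIM2b likewise, at 19.0 ± 1.60 against 63.2 ± 5.52 FPKM (-1.68, SE 0.19, limma adjusted p = 6.03e-06). CPB (AT1G71790), a subunit of the capping protein that blocks filament ends, was lower too, at 20.4 against 46.6 FPKM (-1.14, SE 0.17, limma adjusted p = 0.000112), as was ADF9 (-1.78, SE 0.50, limma adjusted p = 0.0126). On the higher side were 7 of 13 bundling genes, with the fimbrin FIM2 at 1.30 (SE 0.24, limma adjusted p = 0.000721) and SCAB1 at 0.65 (SE 0.14, limma adjusted p = 0.00264). Of 12 formins 6 were higher, among them FH6 at 0.90 (SE 0.15, limma adjusted p = 0.000213) and FH2 at 0.88 (SE 0.19, limma adjusted p = 0.00218), and 1 was lower. That gene, FH4 at -0.62 (SE 0.23, limma adjusted p = 0.0472), is named here after its values were seen.

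Of the lists for nucleation by the SCAR and Arp2/3 complexes, for capping and turnover and for myosins, 5 of 17, 3 of 5 and 3 of 13 genes were called there, beside 32.2% of all genes. All were higher except CPB, and of all genes 16.9% were called higher and 15.3% lower. NAP1 (AT2G35110), of the SCAR complex, was at 17.2 ± 0.271 against 7.84 ± 0.677 FPKM (1.04, SE 0.13, limma adjusted p = 1.65e-05), the smallest adjusted p of its list. The profilins PRF3 at 1.13 (SE 0.24, limma adjusted p = 0.00174) and PRF1 at 0.67 (SE 0.18, limma adjusted p = 0.00857) were 2 of 4, though the libraries of PRF1 overlapped. AIP1-2, a cofactor of the depolymerizing factors, was higher by 0.67 (SE 0.12, limma adjusted p = 0.000646), and ADF6 by 0.82 (SE 0.19, limma adjusted p = 0.00289). The myosin XI-B was higher by 1.39 (SE 0.28, limma adjusted p = 0.00109), from 1.07 FPKM in VG ground roots. Among the nuclear actin-related proteins, parts of chromatin complexes, 1 of 6 was called, ARP6, at 11.3 against 19.4 FPKM (-0.72, SE 0.23, limma adjusted p = 0.0217). For the flight effect of WS at BO minus that at VG, 2 of 79 (2.53%) passed, beside 6.83% of all genes. These were WLIM2b at 0.71 (SE 0.17, limma adjusted p = 0.023) and FIM2 at -1.18 (SE 0.35, limma adjusted p = 0.0493). WLIM2b was called under 13 of 19 alternatives and FIM2 under 6 of 19, and the count ranged from 0 to 6 when 1 library was left out, with the 6 reached without WS VG ground replicate 2.

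Markers of root cell types moved with some of these comparisons, in which 5.51% of all genes were called higher and 6.15% lower in WS BO flight and 5.05% and 5.25% in sku5 BO flight. Of 6 root markers 1 rose in WS BO flight, the epidermal regulator GL2 by 0.72 (SE 0.22, limma adjusted p = 0.0454). The summed root markers went the other way, at 7323 to 8236 FPKM on the ground and 4663 to 7414 FPKM in flight, and these ranges overlapped. The median log2 change of the 6 root markers was 0.02. In Col-0 VG ground roots PYK10 alone held 4508 of a summed 4651 FPKM, so such a sum can follow 1 gene. In WS BO flight 1 of 2 phloem markers rose, SUC2 by 1.09 (SE 0.26, limma adjusted p = 0.0125), and in sku5 it rose by 1.48 (SE 0.26, limma adjusted p = 0.00209). The summed phloem markers were at 18.3 to 31.2 FPKM in WS BO ground and 35.6 to 50.3 FPKM in WS BO flight libraries, and at 21.2 to 22.2 and 35.5 to 52.8 FPKM in sku5. Of 7 root hair markers, 1 fell in WS BO flight, RHD2 by 0.63 (SE 0.19, limma adjusted p = 0.0465), and the summed list overlapped between ground (167 to 212 FPKM) and flight (146 to 189 FPKM). In sku5 limma called 0 of 7, with 1 at an unadjusted p under 0.05. The sums were 169 to 233 FPKM on the ground and 146 to 149 FPKM in flight, and did not overlap. In sku5 5 of 7 were lower in flight with no overlap, beside 15.8% of all genes, and in WS 1 of 7, beside 21.9%. Of 4 dividing-cell markers, CDKB1-1 fell in WS by 1.03 (SE 0.27, limma adjusted p = 0.022), with sums of 105 to 154 FPKM on the ground and 78.1 to 105 FPKM in flight. Between BO and VG ground roots of WS, 4 of 7 root hair markers and 2 of 4 dividing-cell markers were called higher in BO roots, beside 16.9% of all genes, and their sums were 167 to 212 against 71.4 to 162 FPKM and 105 to 154 against 57.1 to 80.5 FPKM. Of 3 shoot markers 1 was higher there, RBCS1A, with sums of 140.4 to 245 against 35.6 to 63.8 FPKM. Of 6 root markers 2 were higher and 1 lower there, with sums of 7323 to 8236 against 2809 to 3689 FPKM. Their median log2 change was 0.12. Of 2 phloem markers 1 was lower, with sums of 18.3 to 31.2 against 30.9 to 42.4 FPKM. Of all genes 15.3% were called lower. None of these markers was at 0 in all libraries of a group, and their part in the actin values was not tested.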

How the data were processed

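Per the submitters' processing notes, reads were handled with Trimmomatic 0.36, FastQC 0.11.4, MultiQC 1.1, STAR 2.7.3a, RSEM 1.2.31 and DESeq2. Which genome build and annotation they used, and what each tool did, is not given in the sources used here. Libraries were made from poly(A) RNA with a strand-marking kit per the labels, and the ERCC spike-ins (mix 1 in flight, mix 2 in ground samples) were not used here. The labels call the replicates biological and trace them to roots from a single fixation tube, without saying whether a group shared 1 tube, so p-values measure the spread between these libraries, which may be technical.

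The authors deposited 1 table of FPKM for Col-0 (6 libraries) and 1 for WS and sku5 (18 libraries). That these are FPKM was read from the values, whose column sums ran from 1021562 to 1290752. The authors' deposited lists of changed genes hold a p-value, a log2 fold change with its standard error and a mean normalized count per the file headers. The last 2 are treated as scores of the authors, whether the p-value is adjusted is not stated, and these lists were only described.

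A gene entered a fit with at least 3 libraries at 1 FPKM or above. The fits used limma 3.58.1 with a variance trend under R 4.3.3, on log2(FPKM + 1), a scale that understates changes of low genes. The 6 Col-0 libraries made 1 fit (residual df 4) and the other 18 a second (residual df 12), over 8 comparisons, with two-sided tests adjusted by Benjamini-Hochberg over all genes. The fits were tested on simulated data. Alternatives were a pseudocount of 0.1, no filter or one at 5 FPKM, a TMM (trimmed mean of M values) factor, a replicate block, summed paralogues, only the libraries compared, and each library left out. From the lists, up to 4 called genes per list and comparison, by smallest p, were eligible to be named, and the 5 genes most like ACT2 and ACT7. Members and lists were chosen with earlier results of these data known. Python 3.11.15, pandas 2.3.3, numpy 2.4.6, Biopython 1.88 and matplotlib 3.10.9 were used.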

Additional observations from a re-analysis of the deposited data

Results flagged for a closer look

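The flight effect of WS at BO differed from that at VG by the test of the difference for 2 of 79 actin cytoskeleton list genes. Of all genes 6.83% were called in this test. This difference was -1.18 on the log2 scale for FIM2 and 0.71 for WLIM2b. The flight minus ground changes of FIM2 at BO and at VG lay on opposite sides of 0, but neither was called. At BO FIM2 went from 16.35 ± 3.73 FPKM on the ground to 9.41 ± 2.34 FPKM in flight (SD, n = 3). These libraries did not overlap, as for 21.9% of all genes in this direction. At VG its change was 0.44 (SE 0.24, limma adjusted p = 0.589), and flight and ground overlapped. The difference was called under 6 of 19 alternatives for FIM2 and under 13 of 19 for WLIM2b. The same difference was 0.80 for ACT2, 1.02 for ACT8 and -0.94 for ACT1, given as a description since the family was selected on these values. Vehicle, year, site, age and growth conditions cannot be told apart in these values.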

How the results depend on the processing

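ACT2 and ACT8 were called in WS and sku5 at BO under all 13 alternatives, with log2 changes in WS of 0.73 to 0.86 and 0.85 to 1.00. The number of actin genes called in WS at BO was 2 and became 4 with a filter at 5 FPKM and 4 with only the libraries compared, and it ranged from 2 to 4 when 1 library was left out. For BO minus VG it was 3 and ranged from 2 to 5. These refits of the actin genes use the values that chose the family and are no test of it. Of the genes in the actin cytoskeleton lists, the 7 called in WS at BO became 0 to 5 with 1 library left out. The share of all genes called with a library left out is not given here, so such ranges have no background beside them. The 8 called in sku5 became 5 with a TMM factor, 1 with only the libraries compared and 1 to 9 with 1 library left out. The 33 called between BO and VG ground roots became 21 to 32, and the 2 for BO minus VG became 1 with a pseudocount of 0.1, no filter or a TMM factor, and 0 to 6 with 1 library left out. Over single genes and settings, list genes were judged by their call, and actin genes only by how far their change moved. By these rules 1091 values stayed the same, and 116 values of list genes lost their call. Another 9 values, of actin genes, moved by more than the spread between replicates. Lost calls of actin genes are not in the 116, such as those of ACT1 for BO minus VG, called under 8 of 19 alternatives. The causes were not tested. Of the values called, 0 changed sign, while some actin changes that were not called crossed 0, among them ACT3 in Col-0 at VG (-0.22 to 0.40) and ACT11 in sku5 at BO (-0.10 to 0.20). A TMM factor moved the split of all called genes in WS at BO from 1108 higher and 1237 lower to 1356 and 1018, and in sku5 at BO from 1016 and 1056 to 1281 and 825.

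Replicate numbers gave no clear pairing of the libraries: those of the same number deviated together with correlations of -0.23 to 0.14. In Col-0 each matched its own number best, at 0.02 to 0.03, and in the other comparisons not every one did. With 3 libraries per group this check cannot show that they were unpaired. With a replicate block, the 2 list genes for BO minus VG became 1. Depth per library is unknown, so values of ACT4 and ACT12 near 0 carry no interval.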
